A study of Homo sapiens with 43 samples.

Results

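The B cell receptor signalling module comprised 32 genes, chosen by symbol from a list of receptor chains, kinases, adaptors and regulatory proteins, and made up 32 of the 58780 Ensembl genes quantified in each library. By role they were 5 receptor chains and co-receptors (CD79A, CD79B, CR2, CD81, MS4A1), 7 regulatory receptors (CD22, CD72, FCGR2B, FCRL1, FCRL2, FCRL3, FCRL5) and 6 kinases (LYN, BLK, FGR, SYK, BTK, PRKCB). The others were 11 adaptors and effectors (BLNK, PLCG2, PIK3AP1, PIK3CD, VAV1, VAV2, GRB2, DAPP1, RASGRP3, BCL10, MALT1) and 3 intracellular negative regulators (LAX1, INPP5D, PTPN6). Immunoglobulin chain genes were not among them. MS4A1, a B cell surface protein, was counted with the receptor chains and co-receptors, although it is not a chain of the receptor.

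Antigen binding to the B cell receptor leads Src-family kinases such as LYN to phosphorylate the cytoplasmic tails of CD79A and CD79B, which recruit and activate SYK. SYK and BTK then act through the scaffold BLNK on the phospholipase PLCG2, which releases calcium and activates PRKCB, while the adaptor PIK3AP1 and the VAV proteins feed the phosphoinositide 3-kinase PIK3CD. CD22, CD72 and FCGR2B damp the signal by recruiting the phosphatases PTPN6 (SHP-1) and INPP5D (SHIP1), so that kinases, scaffolds and phosphatases together set how strongly a B cell answers antigen.

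Polyadenylated RNA was sequenced from GM12878, a lymphoblastoid line made by transforming B cells with Epstein-Barr virus, so that all GM12878 libraries come from 1 immortalised line that carries the virus. In the panel experiment cells were treated for 6 h with the glucocorticoid dexamethasone (Dex, 500 nM), the cytokines interferon gamma (IFNg, 100 ng/mL), TNF (25 ng/mL) or IL2 (50 U/mL), bacterial lipopolysaccharide (LPS, 10 ng/mL) or the DNA-damaging drug doxorubicin (Dox, 500 nM). DMSO and PBS served as vehicles. Each panel group had 2 libraries, apart from Dox with 1. In the pretreatment experiment cells received 10 µM BRM014, an inhibitor of the ATPases SMARCA4 and SMARCA2 of BAF chromatin remodelling complexes, or DMSO, 0.5 h before IFNg (100 ng/mL), Dex (500 nM) or vehicle (Veh). Stimuli lasted 1 h or 6 h, which made 12 groups of 2 libraries. HepG2, a line from a liver carcinoma, was treated with 10 µM BRM014 or DMSO for 24 h (2 libraries each) and is used here only for levels. The labels do not say that libraries of a group came from separate cultures, so the p-values measure only the spread between these libraries, which may be technical.

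The 39 GM12878 libraries held 12.9 to 22.9 M (mega) counts. Those of HepG2, 4 in number, held 3.06 to 19.9 M counts. Summed levels of 4 B cell markers outside the module (PAX5, EBF1, CD40, POU2AF1) were 241 to 445 TPM in GM12878 and 8.12 to 11.6 TPM in HepG2. In GM12878, 5 T cell markers summed to 1.90 to 5.08 TPM, 5 monocyte markers to 0.170 to 1.62 TPM and 5 hepatocyte markers to 0.880 to 2.91 TPM, while 5 plasma cell markers summed to 1549 to 2458 TPM. A list of 4 NK cell markers summed to 7.02 to 15.5 TPM in GM12878. The plasma cell markers also summed to 310 to 419 TPM in HepG2, so they are not specific to plasma cells. BRM014 acts on protein, so mRNA of its targets does not check the labels: at 6 h SMARCA2 had a log2 fold change of -0.44 and SMARCA4 of 0.29, both called.

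Promoter sequences are shown for 4 members on which the results below turn, LAX1, PTPN6, CD22 and CD72, as the 250 bases before the transcription start. They come from RefSeq (GRCh38.p14), which gave 38 windows for 27 of the 32 members. CD79B, CD81, MS4A1, LYN and BLK had no entry. Capitals mark matches to an EBF palindrome (TCCC and GGGA separated by 2 free bases), the PU.1 core (GAGGAA) or a glucocorticoid receptor half-site (AGAACA), each searched on both strands.
LAX1 (chr1:203764933-203765182, plus strand) encodes a transmembrane adaptor damping antigen receptor signals.
LAX1: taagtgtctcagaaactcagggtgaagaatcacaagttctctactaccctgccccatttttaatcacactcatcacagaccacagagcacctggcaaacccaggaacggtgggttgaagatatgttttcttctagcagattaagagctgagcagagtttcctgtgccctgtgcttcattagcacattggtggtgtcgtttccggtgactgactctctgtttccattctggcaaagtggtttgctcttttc
PTPN6 (chr12:6946327-6946576, plus strand) has 2 windows in the table, and the one with more matches is given. Which of the 2 starts is used in GM12878 was not examined.
PTPN6: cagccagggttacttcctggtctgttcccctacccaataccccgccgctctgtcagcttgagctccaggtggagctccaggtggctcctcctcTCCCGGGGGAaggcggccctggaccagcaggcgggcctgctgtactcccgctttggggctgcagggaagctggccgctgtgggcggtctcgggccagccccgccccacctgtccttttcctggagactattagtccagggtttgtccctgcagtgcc
CD22 (chr19:35328937-35329186, plus strand) has a RefSeq start that lies within its longer GENCODE span.
CD22: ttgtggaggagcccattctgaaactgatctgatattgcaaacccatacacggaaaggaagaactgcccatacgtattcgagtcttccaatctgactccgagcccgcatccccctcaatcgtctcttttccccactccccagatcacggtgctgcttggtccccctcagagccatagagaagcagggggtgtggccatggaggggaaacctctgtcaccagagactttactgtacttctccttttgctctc
CD72 (chr9:35618414-35618663, minus strand) likewise has a RefSeq start within its longer GENCODE span.
CD72: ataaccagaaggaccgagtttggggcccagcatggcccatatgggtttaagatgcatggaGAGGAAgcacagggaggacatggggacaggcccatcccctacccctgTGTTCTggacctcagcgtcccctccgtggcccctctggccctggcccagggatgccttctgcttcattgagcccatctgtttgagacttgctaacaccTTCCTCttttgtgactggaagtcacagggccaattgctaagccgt

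The PTPN6 window held the EBF palindrome 157 bases before the start and a PU.1 core 24 bases after it, beyond the stretch shown. The CD72 window held PU.1 cores 190 and 45 bases before the start and the half-site 143 bases before it. In LAX1 and CD22 none of the searched letters occurred. Over the full 300-base windows, 17 of 38 member windows (44.7%) held the PU.1 core, against 27.9% of all 35116 windows. The half-site was in 6 of 38 (15.8%), against 14.8% of all windows, and a GAS element (TTCNNNGAA) in 2 of 38, against 7.66%. The EBF palindrome was in 1 member window, that of PTPN6, and in 1.21% of all windows. The octamer (ATGCAAAT) was in 1 member window, that of PRKCB, and in 1.77% of all windows. A match is a description of the letters only.

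Levels of different genes are compared on the deposited TPM scale, which accounts for gene length, in the 4 panel vehicle libraries (mean ± SD, n = 4, 2 each of DMSO and PBS). CD79A, the Ig-alpha signalling chain, was the highest at 709 ± 41.5 TPM, followed by the phosphatase PTPN6 at 448 ± 30.1 TPM and MS4A1 (the membrane protein CD20) at 329 ± 12.5 TPM. The ranges of these genes did not overlap in the 4 libraries. In all, 14 members averaged over 100 TPM. CD79B, the Ig-beta chain that pairs with CD79A, stood at 88.2 ± 6.46 TPM.

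By role, medians were 175 TPM for receptor chains and co-receptors, 131 TPM for the intracellular negative regulators, 118 TPM for kinases, 71.2 TPM for adaptors and effectors and 18.5 TPM for regulatory receptors. Within the kinases BLK (171 ± 4.68 TPM) lay above PRKCB (133 ± 6.07 TPM) and LYN (123 ± 4.97 TPM), whose ranges overlapped. BTK (113 ± 8.17 TPM), FGR (91.1 ± 0.95 TPM) and SYK (31.5 ± 1.15 TPM) followed, each below the range of the one before. Among regulatory receptors CD22 stood at 137 ± 2.09 TPM, FCGR2B at 44.9 ± 1.11 TPM, FCRL5 at 20.7 ± 1.13 TPM and CD72 at 18.5 ± 1.47 TPM, the last pair overlapping. FCRL1, FCRL2 and FCRL3, Fc receptor-like surface proteins, averaged 0.323, 0.660 and 0.333 TPM, from 0 to 37 counts per GM12878 library, so differences in them were poorly resolved at this depth. These 3 genes and FCRL5 lie in the same stretch of chromosome 1, which carries 10 of the 32 members.

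HepG2 gave a level for the same genes in a line that is not of the B lineage. In its 4 libraries 20 members stayed under 1 TPM, and 14 of them were listed at 0 in all 4, among them MS4A1, CR2, BLK, SYK, BTK, BLNK and LAX1. Over 10 TPM in HepG2 with DMSO were 7 members: GRB2 (91.8 TPM), VAV2 (28.7), MALT1 (28.0), PTPN6 (18.8), INPP5D (12.9), PIK3CD (12.3) and BCL10 (10.1). The TPM values of MALT1 overlapped between HepG2 with DMSO (25.8 and 30.2) and GM12878 vehicles (24.6 to 28.3).

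**Figure D1:**
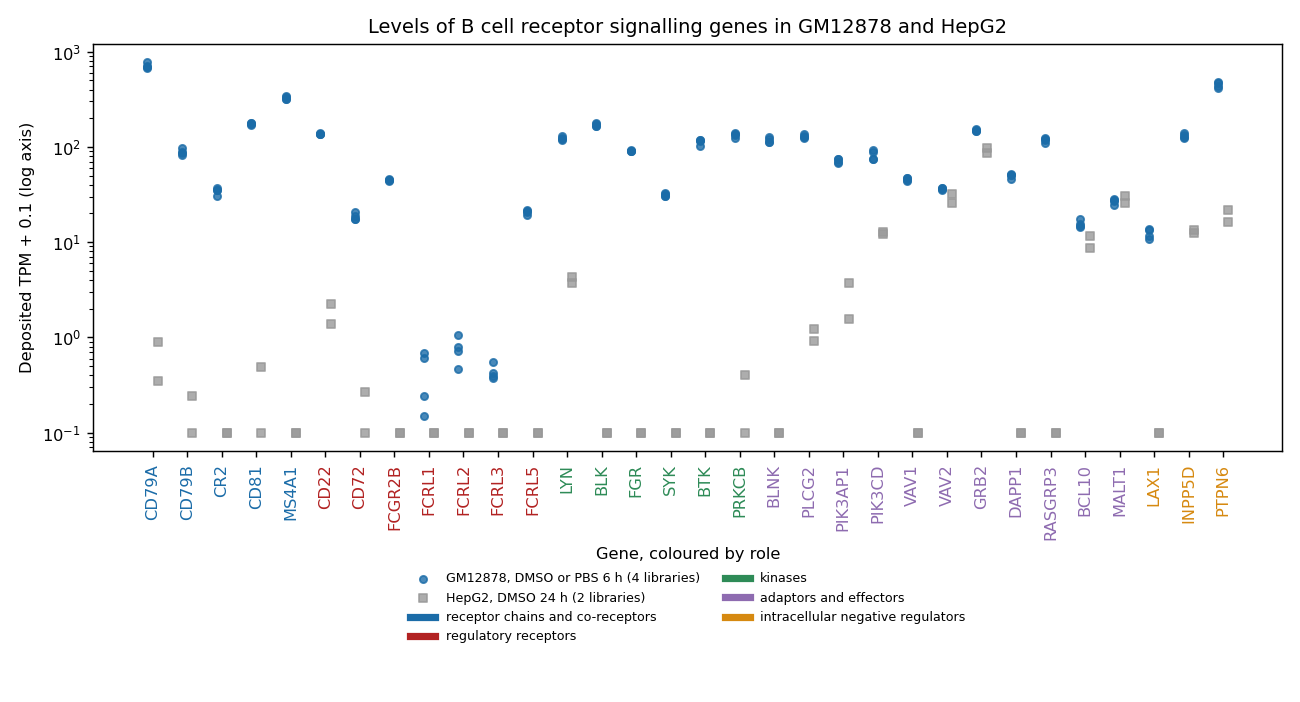
Deposited TPM (plus 0.1, log axis) of the 32 genes in the 4 GM12878 vehicle libraries of the panel and the 2 HepG2 libraries with DMSO, each point 1 library. GM12878 points lie above 100 TPM for 14 genes, and most HepG2 points outside GRB2, VAV2, MALT1, PTPN6, INPP5D, PIK3CD and BCL10 lie near the bottom.

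With BRM014 and 6 h of vehicle most of the module was lower. Of 31 members tested 26 fell and 2 rose at an adjusted p under 0.05 in edgeR's quasi-likelihood test (n = 2 libraries per group), where 20.1% of all 15183 genes were called lower and 18.4% higher. The median log2 fold change was -0.52 over the members and 0.01 over all genes. The members were chosen with earlier results of these data known. Here and below, an excess over the share of all genes may therefore not be independent of that choice. By role, 5 of 5 receptor chains and co-receptors, 5 of 6 regulatory receptors, 5 of 6 kinases, 8 of 11 adaptors and effectors and 3 of 3 intracellular negative regulators fell. Median log2 fold changes of these roles, in the same order, were -0.68, -1.39, -0.42, -0.43 and -1.98. FCRL1 had too few counts to be tested. RNA of bulk cultures cannot tell apart fewer cells of a type from less RNA per cell.

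The steepest falls included 2 negative regulators and several surface receptors. CPM below are TMM-scaled counts at a common depth. LAX1 fell to 1.43 and 1.81 CPM with BRM014, against 21.8 and 22.7 CPM with DMSO (log2 fold change -3.77 ± 0.17, adjusted p = 3.2e-17). PTPN6, the SH2-domain phosphatase that inhibitory receptors recruit, had 117 and 125 CPM with BRM014, against 499 and 452 CPM with DMSO (log2 fold change -1.98 ± 0.06, adjusted p = 6.7e-21). The groups did not overlap in either gene. CD79B had 21.9 and 21.8 CPM with BRM014, against 76.9 and 73.4 CPM with DMSO (log2 fold change -1.78 ± 0.09, adjusted p = 3.4e-16). FGR, a Src-family kinase, had 32 and 35.7 CPM with BRM014, against 112 and 115 CPM with DMSO (log2 fold change -1.75 ± 0.08, adjusted p = 9.3e-18). CD22, the sialic acid-binding receptor whose tail recruits PTPN6, had 61.5 and 64.4 CPM with BRM014, against 193 and 186 CPM with DMSO (log2 fold change -1.59 ± 0.06, adjusted p = 4.7e-20). In each of these 3 genes both BRM014 libraries lay below both DMSO libraries. CD72, a lectin-like receptor that also recruits PTPN6, had 5.25 and 6.01 CPM with BRM014, against 17.9 and 16.2 CPM with DMSO (log2 fold change -1.59 ± 0.13, adjusted p = 4.3e-11), again without overlap.

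FCRL3 had a fitted log2 fold change of -2.79 from 2 counts over the BRM014 libraries against 17 over the DMSO libraries. Scaled for depth this is a ratio of 0.141 (95% counting interval 0.0158 to 0.595), and the call was lost without BRM014+Veh replicate 2 (adjusted p = 0.161), without DMSO+Veh replicate 1 (0.0699) and in DESeq2 (0.0583). FCRL2 (-1.18, from 15 counts against 39) lost its call without any 1 of the 4 libraries (adjusted p 0.0833 to 0.215), and MALT1 (-0.19) without BRM014+Veh replicate 2 (0.247) or DMSO+Veh replicate 2 (0.135). The other members called lower kept their call without any 1 library. They included MS4A1 (-1.30), FCRL5 (-1.11), the Ras exchange factor RASGRP3 (-0.97), BTK (-0.83) and CD79A (-0.68) on the log2 scale.

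CD79A, which pairs with CD79B in the receptor, had 393 and 374 CPM with BRM014, against 668 and 566 CPM with DMSO (log2 fold change -0.68 ± 0.06, adjusted p = 9.2e-11), and whether the chains differ in their fall was not tested. The 2 members that rose sit at the same step of the pathway. BLNK, the scaffold on which SYK and BTK meet PLCG2, had 187 and 195 CPM with BRM014, against 142 and 135 CPM with DMSO (log2 fold change 0.47 ± 0.06, adjusted p = 2.1e-07). PLCG2 itself had 474 and 493 CPM with BRM014, against 415 and 397 CPM with DMSO (log2 fold change 0.25 ± 0.05, adjusted p = 1.7e-04). In both genes each BRM014 library lay above both DMSO libraries. Members with no call were FCGR2B (log2 fold change -0.13), BLK (-0.08) and GRB2 (-0.00). GRB2, a general growth factor adaptor, had 372 and 389 CPM with BRM014, against 392 and 370.0 CPM with DMSO, with overlapping groups.

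Beside these falls, the 4 B cell markers outside the module summed to 245.0 and 246 TPM with BRM014, against 389 and 399 TPM with DMSO, at 6 h with vehicle. The 5 plasma cell markers summed to 1766 and 2030.3 TPM with BRM014, against 2198 and 2244 TPM with DMSO. The part of either list in the result was not tested. In a wider list of 66 pathway genes outside the module, 36 fell and 8 rose with BRM014 at 6 h, with a median log2 fold change of -0.32. The Src-family kinase LCK (-2.11), the inhibitory adaptor DOK3 (-1.87), the protein kinase C family member PRKCD (-0.87) and FCRLA (-0.83) fell. The calcineurin subunit PPP3CB (0.45), the NF-kappaB regulator IKBKG (0.55), the docking protein GAB2 (0.51) and CSK (0.23), the kinase that restrains Src-family kinases, rose.

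After 1 h of vehicle, 2 of 31 members were called, both lower, where 2.05% of all genes were called in either direction. The 4 B cell markers summed to 375.1 and 375.4 TPM with BRM014, against 400.0 and 402 TPM with DMSO, without overlap, and their part in the result was not tested. LAX1 had 8.82 and 8.77 CPM with BRM014, against 27.1 and 24.3 CPM with DMSO (log2 fold change -1.55 ± 0.13, adjusted p = 8.8e-10). PTPN6 had 393 and 397 CPM with BRM014, against 467 and 478 CPM with DMSO (log2 fold change -0.26 ± 0.06, adjusted p = 0.00916). Neither gene overlapped between groups. The PTPN6 call was lost without any 1 of the libraries (adjusted p = 0.1 without BRM014+Veh replicate 1, 0.0651 without BRM014+Veh replicate 2, 0.0544 without DMSO+Veh replicate 1, 0.156 without DMSO+Veh replicate 2), whereas LAX1 kept its call without each. At the same time CD79B, FGR and CD22, which fell steeply at 6 h, had log2 fold changes of -0.17, -0.08 and -0.11 with adjusted p of 0.525, 0.868 and 0.519. Their BRM014 libraries lay below both DMSO libraries, as did those of other members with small shifts, such as BLK (log2 ratio -0.05) and BTK (-0.04). The share of all genes separated in this way was not computed, so no early fall is read from it. Of the 66 genes in the wider list 3 fell and 0 rose, led by RHOH (-0.70), a GTPase of blood cells.

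LAX1 and PTPN6 were also lower after BRM014 in libraries that received a stimulus, which the vehicle contrast did not use. For LAX1 at 1 h, IFNg libraries held 10.3 and 8.81 CPM after BRM014, against 21.2 and 23.7 CPM after DMSO. Dex libraries held 8.53 and 8.04 CPM after BRM014, against 23.6 and 22.9 CPM after DMSO. With IFNg for 6 h LAX1 held 2.34 and 1.30 CPM after BRM014, against 16.6 and 21.2 CPM after DMSO. With Dex for 6 h it held 1.04 and 1.10 CPM after BRM014, against 17.6 and 18.5 CPM after DMSO. LAX1 thus lay lower after BRM014 in all 6 pairs of groups, without overlap. So did PTPN6, CD22, FGR, MS4A1, PIK3AP1 and DAPP1, by smaller shifts than LAX1 at 1 h. With 2 libraries per group a lack of overlap is a weak criterion, and the share of all genes that meet it was not computed. With IFNg for 1 h PTPN6 held 412 and 386 CPM after BRM014, against 495 and 498 CPM after DMSO. With Dex for 1 h it held 422 and 388 CPM after BRM014, against 466 and 455 CPM after DMSO, again with no overlap. BLNK stood higher after BRM014 in the 6 h IFNg libraries (202 and 199 CPM after BRM014, against 152 and 126 CPM after DMSO). It did so too in the 6 h Dex libraries (142 and 131 CPM after BRM014, against 96.0 and 93.2 CPM after DMSO).

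**Figure D2:**
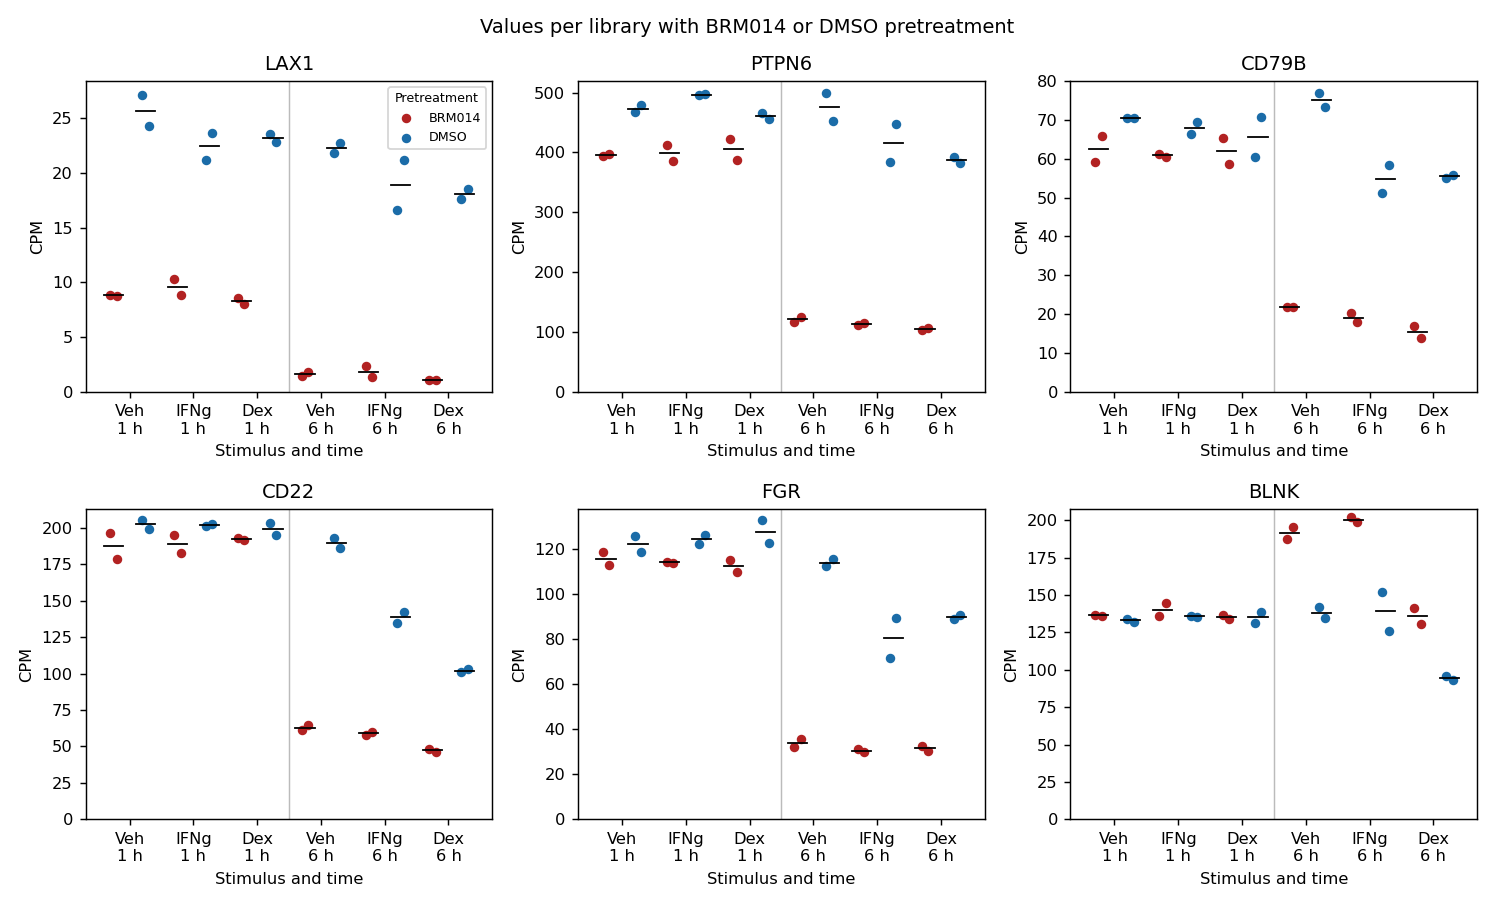
CPM of 6 genes in the 24 pretreatment libraries, with BRM014 left of DMSO for each stimulus and time, points for libraries and bars for means of 2. LAX1 is already widely separated at 1 h. CD22 and FGR lie only slightly lower with BRM014 at 1 h, as does CD79B except with Dex, where its libraries overlap. The gaps of CD79B, CD22 and FGR are wide at 6 h, and BLNK is higher with BRM014 at 6 h.

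Dex for 6 h in the panel changed 29 of 32 members, 7 up and 22 down, where 13.0% of all 15775 genes were called higher and 12.7% lower. The median log2 fold change was -0.24 over the members and -0.00 over all genes. Falls outnumbered rises in each role: 4 and 1 among receptor chains and co-receptors, 3 and 2 among regulatory receptors, 4 and 2 among kinases, 9 and 1 among adaptors and effectors, and 2 and 1 among negative regulators. The panel contrasts share the same 4 vehicle libraries. The 4 B cell markers summed to 386 and 387 TPM with Dex, against 402 to 413 TPM with vehicles. The 5 plasma cell markers summed to 1770.3 to 1895 TPM with Dex, against 2177 to 2401 TPM with vehicles. The part of either list in the result was not tested.

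CR2, the complement receptor that works with CD81 in a co-receptor complex, had 51.5 and 57.3 CPM with Dex, against 115 and 108 CPM with DMSO and 94.5 and 111 CPM with PBS (log2 fold change -0.97 ± 0.06, adjusted p = 1.8e-13). CD22 had 113 and 108 CPM with Dex, against 206 and 204 CPM with DMSO and 212 and 212 CPM with PBS (log2 fold change -0.91 ± 0.04, adjusted p = 8.4e-18). Both genes were lower in each Dex library than in any vehicle library. BLNK had 93.4 and 97.6 CPM with Dex, against 134 and 128 CPM with DMSO and 128 and 143 CPM with PBS (log2 fold change -0.48 ± 0.05, adjusted p = 3.4e-10). RASGRP3 had 147 and 167 CPM with Dex, against 216 and 206 CPM with DMSO and 208 and 225 CPM with PBS (log2 fold change -0.45 ± 0.05, adjusted p = 7.3e-08). LAX1 had 18.8 and 18 CPM with Dex, against 26.7 and 27.2 CPM with DMSO and 21.7 and 23.5 CPM with PBS (log2 fold change -0.43 ± 0.08, adjusted p = 8.8e-05). No vehicle library reached down to a Dex library in these genes. FCRL3 had a fitted log2 fold change of -1.72 from 10 counts against 73, a depth-scaled ratio of 0.296 (95% counting interval 0.136 to 0.575). Its call was lost without Dex replicate 2 (adjusted p = 0.155) and in DESeq2 (0.0502).

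Among the rises were inhibitory receptors, a protein of the co-receptor complex and kinases. FCGR2B, the inhibitory receptor for IgG, had 100.5 and 93.4 CPM with Dex, against 71.0 and 68.5 CPM with DMSO and 69.8 and 71.1 CPM with PBS (log2 fold change 0.46 ± 0.05, adjusted p = 9.5e-09). BLK, a Src-family kinase of B cells, had 380.4 and 377 CPM with Dex, against 286 and 278 CPM with DMSO and 298 and 295 CPM with PBS (log2 fold change 0.39 ± 0.04, adjusted p = 6.8e-11). DAPP1, an adaptor that binds phosphoinositides, had 94.8 and 105 CPM with Dex, against 81.5 and 78 CPM with DMSO and 76.3 and 79.1 CPM with PBS (log2 fold change 0.35 ± 0.05, adjusted p = 5.4e-06). These Dex libraries all lay above the vehicles. CD81, a tetraspanin of the B cell co-receptor complex, had 210.1 and 204 CPM with Dex, against 169 and 173 CPM with DMSO and 175 and 168 CPM with PBS (log2 fold change 0.28 ± 0.04, adjusted p = 6.8e-07). INPP5D, the lipid phosphatase that FCGR2B recruits, had 469 and 456 CPM with Dex, against 376 and 367 CPM with DMSO and 413 and 393 CPM with PBS (log2 fold change 0.26 ± 0.04, adjusted p = 9.8e-07), so that receptor and phosphatase were both higher. CD72 had 19.5 and 23.4 CPM with Dex, against 16.6 and 18.5 CPM with DMSO and 18.5 and 19.5 CPM with PBS (log2 fold change 0.24 ± 0.09, adjusted p = 0.0413), with Dex replicate 1 just above the highest vehicle library. The CD72 call was lost in DESeq2 (adjusted p = 0.177) and against PBS alone (0.253), and with 1 library left out its adjusted p was 0.141 without DMSO replicate 1, 0.631 without Dex replicate 2, 0.0582 without PBS replicate 1.

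The other member called higher was PRKCB (0.13), whose call was lost without Dex replicate 2 (adjusted p = 0.268). The 16 other members called lower had log2 fold changes of -0.36 to -0.13, among them LYN (-0.36), CD79B (-0.36), VAV1 (-0.35), MS4A1 (-0.33), PIK3AP1 (-0.32) and PTPN6 (-0.28). Of these 16, SYK, BCL10, BTK, CD79A and FCRL5 lost the call when 1 library was left out: the adjusted p of SYK was 0.132 without DMSO replicate 1, 0.0528 without DMSO replicate 2, 0.269 without Dex replicate 1, 0.0928 without Dex replicate 2, 0.181 without PBS replicate 2. That of BCL10 was 0.138 without Dex replicate 1, 0.0617 without Dex replicate 2, 0.0666 without PBS replicate 1, that of BTK 0.202 without Dex replicate 1 and that of CD79A 0.136 without Dex replicate 2. That of FCRL5 was 0.0800 without DMSO replicate 2, 0.0523 without Dex replicate 1, 0.213 without Dex replicate 2, 0.124 without PBS replicate 2. These calls also depended on the vehicle. Against PBS alone the adjusted p was 0.0978 for SYK, 0.125 for BCL10, 0.0869 for BTK and 0.127 for FCRL5. Against DMSO alone it was 0.101 for SYK and 0.131 for CD79A. In DESeq2 it was 0.131 for SYK, 0.0900 for BCL10 and 0.101 for FCRL5. SYK also lost its call with DESeq2 size factors (0.0518) and without a filter on low counts (0.0731). MALT1 (0.05), FCRL1 (-0.88) and FCRL2 (-0.26) were not called. Of the wider list 18 of 66 genes rose and 17 fell. Those with the smallest adjusted p were, among rises, the docking protein GAB1 (1.89), the calcium channel ITPR1 (1.58), the transcription factor FOXO1 (0.99) and RHOH (0.87), while LCK (-0.68), CD38 (-0.46), DOK3 (-0.43) and CSK (-0.42) fell.

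The pretreatment experiment repeated Dex at the same dose in cells given DMSO, with no libraries in common with the panel. Its Dex, IFNg and BRM014 contrasts at 1 time share the same 2 libraries of DMSO with vehicle. After 1 h, 0 of 31 members were called in edgeR, 0 in DESeq2 and 0 at an unadjusted p under 0.05, where 0.606% of all genes were called. Of all 15183 genes, 620 were at an unadjusted p under 0.05. After 6 h, 19 of 31 were called, 6 higher and 13 lower, where 8.06% of all genes were called higher and 7.53% lower. Falls outnumbered rises only among receptor chains and co-receptors (3 and 1) and adaptors and effectors (6 and 1). Counts were equal among regulatory receptors (1 and 1), kinases (2 and 2) and negative regulators (1 and 1), unlike in the panel. All 19 were called in the same direction in the panel, which is 19 of the 29 called there and 19 of the 19 called here. The matching share of calls shared by both experiments over all genes was not computed. Signs were the same for 30 of 31 members, against 72.6% of all genes tested in both. Here the B cell markers summed to 358 and 371 TPM with Dex, against 389 and 399 TPM with vehicle, and plasma cell markers to 1806 and 1867 TPM with Dex, against 2198 and 2244 TPM with vehicle.

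CR2 had 51.2 and 53.8 CPM with Dex, against 97.8 and 102 CPM with vehicle (log2 fold change -0.93 ± 0.07, adjusted p = 5.2e-12). CD22 had 101 and 103 CPM with Dex, against 193 and 186 CPM with vehicle (log2 fold change -0.90 ± 0.05, adjusted p = 3.5e-14). RASGRP3 had 143 and 148 CPM with Dex, against 206 and 228 CPM with vehicle (log2 fold change -0.58 ± 0.06, adjusted p = 3.4e-09). In these genes all Dex libraries lay below the vehicle libraries. BLNK had 96.0 and 93.2 CPM with Dex, against 142 and 135 CPM with vehicle (log2 fold change -0.54 ± 0.06, adjusted p = 6.3e-08). PIK3CD, the catalytic subunit of phosphoinositide 3-kinase in leukocytes, had 229 and 236 CPM with Dex, against 322 and 325 CPM with vehicle (log2 fold change -0.48 ± 0.05, adjusted p = 4.6e-08). MS4A1 had 395 and 395 CPM with Dex, against 514 and 559 CPM with vehicle (log2 fold change -0.44 ± 0.06, adjusted p = 5.2e-06), again without overlap.

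On the rising side FCGR2B had 83.1 and 88.8 CPM with Dex, against 56.1 and 62.7 CPM with vehicle (log2 fold change 0.53 ± 0.07, adjusted p = 1.9e-06). BLK had 366 and 364 CPM with Dex, against 278 and 263 CPM with vehicle (log2 fold change 0.43 ± 0.05, adjusted p = 1.4e-07). CD81 had 243 and 226 CPM with Dex, against 192 and 182 CPM with vehicle (log2 fold change 0.33 ± 0.06, adjusted p = 1.8e-04). Each Dex library lay above both vehicle libraries. DAPP1 had 99.0 and 99.6 CPM with Dex, against 74.9 and 82.6 CPM with vehicle (log2 fold change 0.33 ± 0.06, adjusted p = 1.9e-04). INPP5D had 434 and 451 CPM with Dex, against 370.1 and 381 CPM with vehicle (log2 fold change 0.24 ± 0.05, adjusted p = 3.6e-04). PRKCB had 636 and 645 CPM with Dex, against 561 and 571 CPM with vehicle (log2 fold change 0.18 ± 0.05, adjusted p = 0.00803), and its call was lost without any of 3 libraries (adjusted p = 0.0514 without DMSO+Dex replicate 1, 0.0661 without DMSO+Dex replicate 2, 0.0576 without DMSO+Veh replicate 1). In the wider list 16 of 66 rose and 11 fell, including GAB1 (1.74), FOXO1 (0.99), RHOH (0.91) and PRKCE (0.83) among rises and LCK (-0.58), DOK3 (-0.54), FCRL4 (-1.31) and CSK (-0.36) among falls. RHOH was the 1 gene of the wider list called at 1 h of Dex (0.54), and likewise at 1 h of IFNg (0.52), in contrasts that share vehicle libraries.

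**Figure D3:**
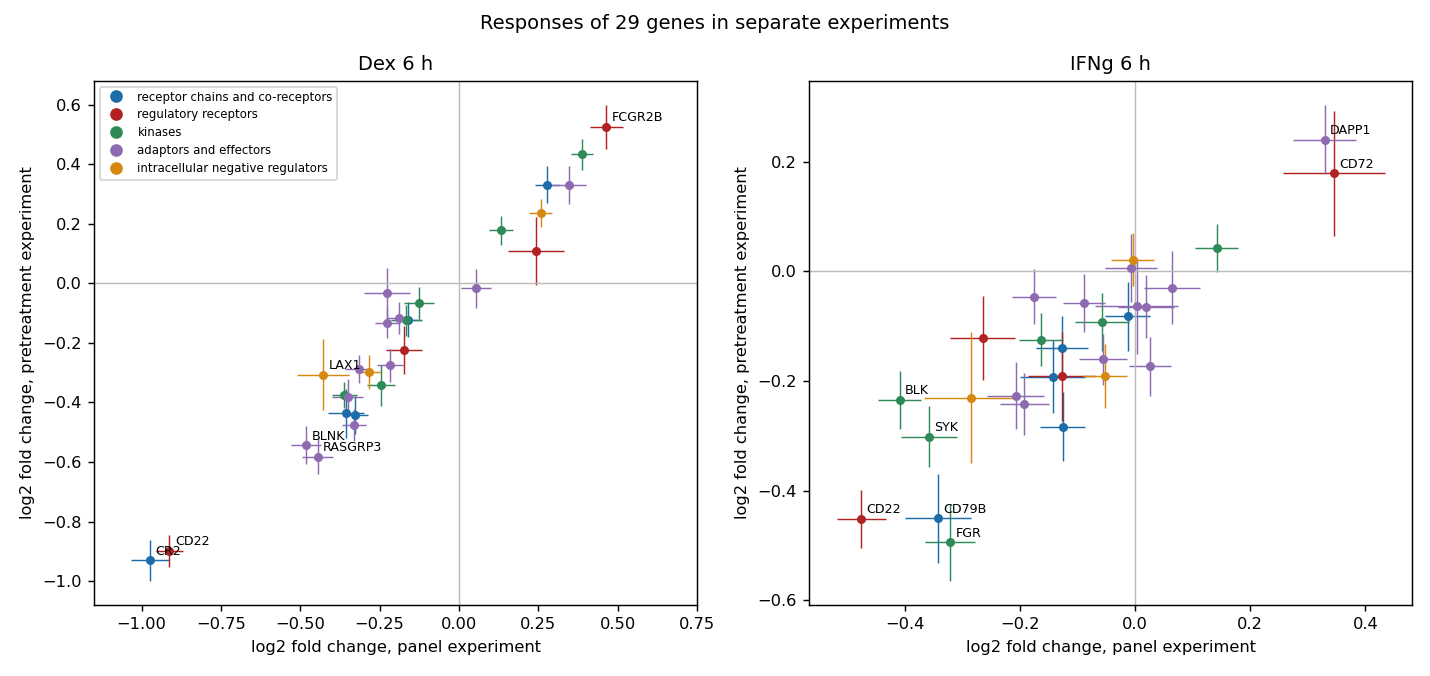
log2 fold changes (± SE) of 29 genes (FCRL1, FCRL2 and FCRL3 left out) for Dex and IFNg at 6 h, panel on the x axis and pretreatment experiment on the y axis, coloured by role. CR2 and CD22 lie lowest for Dex, and FCGR2B and BLK highest; for IFNg CD22, BLK, SYK, CD79B and FGR lie in the lower left.

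IFNg for 6 h in the panel changed 15 of 32 members, 3 up and 12 down, where 7.11% of all genes were called higher and 4.75% lower. The median log2 fold change was -0.13 over the members and -0.01 over all genes. By role, 4 of 6 kinases fell, as did 2 of 5 receptor chains and co-receptors, 2 of 7 regulatory receptors, 3 of 11 adaptors and effectors and 1 of 3 negative regulators. Without IFNg replicate 2 the count was 8, where 718 of 15821 genes were called higher and 342 lower, against 1122 and 750 of 15775 with all libraries.

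CD22 had 153 and 146 CPM with IFNg, against 206 and 204 CPM with DMSO and 212 and 212 CPM with PBS (log2 fold change -0.48 ± 0.04, adjusted p = 1.9e-10). BLK had 220.1 and 215 CPM with IFNg, against 286 and 278 CPM with DMSO and 298 and 295 CPM with PBS (log2 fold change -0.41 ± 0.04, adjusted p = 2.2e-10). SYK, which binds the phosphorylated CD79 chains, had 95.3 and 95.7 CPM with IFNg, against 124 and 119.8 CPM with DMSO and 117 and 128 CPM with PBS (log2 fold change -0.36 ± 0.05, adjusted p = 1.3e-06). In these genes every IFNg library lay below every vehicle library. CD79B had 53.3 and 48.1 CPM with IFNg, against 62.3 and 59.7 CPM with DMSO and 66.6 and 68.7 CPM with PBS (log2 fold change -0.34 ± 0.06, adjusted p = 4.0e-05). FGR had 104 and 111 CPM with IFNg, against 131 and 131 CPM with DMSO and 139 and 137 CPM with PBS (log2 fold change -0.32 ± 0.04, adjusted p = 1.1e-06). LAX1 had 19.8 and 20.8 CPM with IFNg, against 26.7 and 27.2 CPM with DMSO and 21.7 and 23.5 CPM with PBS (log2 fold change -0.29 ± 0.08, adjusted p = 0.0149), and its call was lost against PBS alone (adjusted p = 0.339) and in DESeq2 (0.0995), and with 1 library left out its adjusted p was 0.167 without IFNg replicate 1, 0.0842 without IFNg replicate 2, 0.05 without PBS replicate 2.

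Among rises, CD72 had 22.6 and 23.8 CPM with IFNg, against 16.6 and 18.5 CPM with DMSO and 18.5 and 19.5 CPM with PBS (log2 fold change 0.35 ± 0.09, adjusted p = 0.00692). DAPP1 had 94.1 and 104 CPM with IFNg, against 81.5 and 78 CPM with DMSO and 76.3 and 79.1 CPM with PBS (log2 fold change 0.33 ± 0.05, adjusted p = 3.9e-05). LYN, the Src-family kinase that starts both activating and inhibitory signals, had 306 and 303 CPM with IFNg, against 274 and 269 CPM with DMSO and 271 and 289 CPM with PBS (log2 fold change 0.14 ± 0.04, adjusted p = 0.00966). The IFNg libraries lay above the vehicles in all 3 genes. The CD72 call was lost without IFNg replicate 2 (adjusted p = 0.124) and against PBS alone (0.0794), and that of LYN without IFNg replicate 1 (0.138), without IFNg replicate 2 (0.0546) and against PBS alone (0.0831). The 6 other falls were FCGR2B (-0.26), VAV1 (-0.21), VAV2 (-0.19), PLCG2 (-0.18), PRKCB (-0.16) and MS4A1 (-0.13). Each of these 6 lost its call without an IFNg library. The adjusted p was 0.0539 without IFNg replicate 2 for FCGR2B, 0.143 without IFNg replicate 2 for VAV1 and 0.112 without IFNg replicate 2 for VAV2. It was 0.126 without IFNg replicate 1 for PLCG2, 0.0612 without IFNg replicate 2 for PRKCB and 0.115 without DMSO replicate 1, 0.410 without IFNg replicate 1 for MS4A1.

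In the wider list 8 of 66 genes rose and 11 fell with IFNg in the panel. CD38, an ectoenzyme of activated B cells, rose by 1.33 on the log2 scale, IFITM1, an interferon-induced membrane protein, by 0.84, THEMIS2 by 0.51 and SH3BP2 by 0.36. SIGLEC10 (-0.53), FYN (-0.39), LCK (-0.27) and FCRLA (-0.24) fell.

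In the pretreatment experiment 0 of 31 members were called after 1 h of IFNg in edgeR, 0 in DESeq2 and 0 at an unadjusted p under 0.05, where 0.514% of all genes were called. Of all 15183 genes, 542 were at an unadjusted p under 0.05. After 6 h 12 of 31 were called, 1 higher and 11 lower, where 3.47% of all genes were called higher and 3.15% lower. In both experiments 9 members were called, each in the same direction. That is 9 of the 15 in the panel and 9 of the 12 here, and the matching share over all genes was not computed. Signs matched for 25 of 31 members and for 64.4% of all genes. The count of 12 was 6 without DMSO+IFNg replicate 1, where 473 of 15689 genes were called higher and 209 lower. It was 5 without DMSO+Veh replicate 1, where 426 of 15696 were called higher and 291 lower, against 527 and 478 of 15183 with all libraries.

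FGR had 71.7 and 89.2 CPM with IFNg, against 112 and 115 CPM with vehicle (log2 fold change -0.49 ± 0.07, adjusted p = 1.1e-05). CD22 had 135 and 142 CPM with IFNg, against 193 and 186 CPM with vehicle (log2 fold change -0.45 ± 0.05, adjusted p = 3.2e-07). CD79B had 51.2 and 58.3 CPM with IFNg, against 76.9 and 73.4 CPM with vehicle (log2 fold change -0.45 ± 0.08, adjusted p = 3.6e-04). SYK had 104 and 108 CPM with IFNg, against 129.7 and 131 CPM with vehicle (log2 fold change -0.30 ± 0.06, adjusted p = 4.1e-04). In all 4 genes the IFNg libraries lay below the vehicle libraries, and the calls were kept without any 1 library. MS4A1 had 395 and 486 CPM with IFNg, against 514 and 559 CPM with vehicle (log2 fold change -0.28 ± 0.06, adjusted p = 0.00431). VAV2, a guanine nucleotide exchange factor, had 114 and 119.9 CPM with IFNg, against 143 and 134 CPM with vehicle (log2 fold change -0.24 ± 0.06, adjusted p = 0.00520). DAPP1 was the 1 rise, with 88.0 and 98.1 CPM with IFNg, against 74.9 and 82.6 CPM with vehicle (log2 fold change 0.24 ± 0.06, adjusted p = 0.0152). These last 3 calls were lost when 1 library was left out. The adjusted p of MS4A1 was 0.234 without DMSO+IFNg replicate 1, 0.103 without DMSO+Veh replicate 2. That of VAV2 was 0.0810 without DMSO+IFNg replicate 1, 0.0949 without DMSO+Veh replicate 1, and that of DAPP1 was 0.230 without DMSO+IFNg replicate 2, 0.215 without DMSO+Veh replicate 1. The other 5 calls, for BLK, VAV1, PTPN6, PIK3CD and PIK3AP1 (-0.23 to -0.16), were each lost without at least 1 library. The adjusted p of BLK was 0.189 without DMSO+IFNg replicate 2, 0.0753 without DMSO+Veh replicate 1. That of VAV1 was 0.339 without DMSO+IFNg replicate 1, 0.130 without DMSO+Veh replicate 1. That of PTPN6 was 0.669 without DMSO+IFNg replicate 1, 0.432 without DMSO+Veh replicate 1. That of PIK3CD was 0.610 without DMSO+IFNg replicate 1, 0.125 without DMSO+Veh replicate 1, 0.187 without DMSO+Veh replicate 2, and that of PIK3AP1 was 0.0588 without DMSO+IFNg replicate 1, 0.206 without DMSO+IFNg replicate 2, 0.0710 without DMSO+Veh replicate 1, 0.179 without DMSO+Veh replicate 2. In the wider list 3 of 66 rose and 9 fell, with CD38 (0.98), IFITM1 (0.68) and THEMIS2 (0.27) higher and PPP3CA (-0.60), FYN (-0.34), DOK3 (-0.31) and LCK (-0.30) lower.

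Dex and IFNg can be set side by side for single members, although their panel contrasts share vehicles. CD22 had panel log2 fold changes of -0.91 with Dex and -0.48 with IFNg, and CD79B of -0.36 and -0.34. BLK was 0.39 with Dex and -0.41 with IFNg, FCGR2B 0.46 and -0.26, LYN -0.36 and 0.14, and PRKCB 0.13 and -0.16. The IFNg calls of FCGR2B, LYN and PRKCB were lost without an IFNg library, and the Dex call of PRKCB without Dex replicate 2. FCGR2B, LYN and PRKCB were not called with IFNg in the pretreatment experiment. BLK was called lower there (-0.23), but that call too was lost without some libraries. The difference between stimuli was not itself tested.

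**Figure D4:**
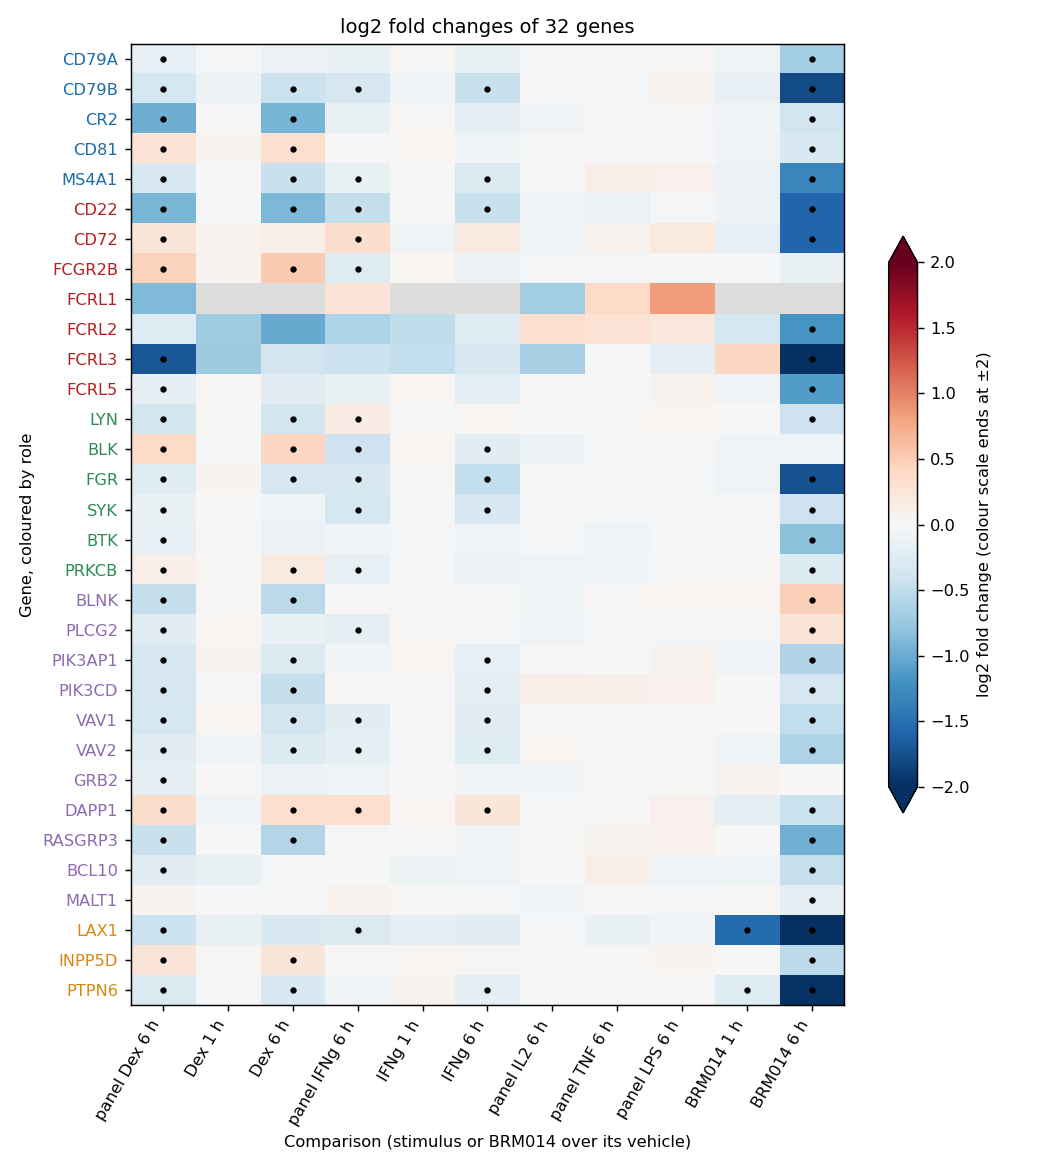
log2 fold changes of the 32 genes in 11 comparisons (colour scale ends at 2 in either direction, grey for not tested), with dots for an adjusted p under 0.05. The BRM014 6 h column is mostly blue, with LAX1 and the sparsely counted FCRL3 past the end of the scale and PTPN6 near it. The 6 h Dex columns show CR2 and CD22 in blue and FCGR2B and BLK in red, and IL2, TNF and LPS carry no dots.

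IL2, TNF and LPS called 0 of 32 members each in edgeR's quasi-likelihood test and 0 in DESeq2, with 3 members each at an unadjusted p under 0.05. Of all 15775 genes, 902, 792 and 776 were at an unadjusted p under 0.05, in the same order. Over all genes 0.203% were called with IL2, 0.019% with TNF and 0.0% with LPS. PIK3CD had 339 and 343 CPM with IL2, 329 and 337 CPM with TNF and 335 and 327 CPM with LPS, against 279.5 and 296 CPM with DMSO and 340.5 and 332 CPM with PBS. The vehicles themselves thus differed in this gene, with both PBS libraries above both DMSO libraries. Against DMSO alone PIK3CD was called higher with all 3 stimuli (log2 fold changes 0.25, 0.21 and 0.20), and against PBS alone it was 0.02, -0.01 and -0.02 with adjusted p of at least 0.994. With IFNg in the panel PIK3CD was called higher against DMSO alone (0.14, adjusted p = 0.0334), was -0.09 against PBS alone (adjusted p = 0.235) and 0.03 against both, while in the pretreatment experiment it was called lower (-0.17). With Dex PIK3CD was lower against either vehicle, at a log2 fold change of -0.22 against DMSO and -0.44 against PBS.

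The single Dox library has no replicate check, so it is described, with no test, by the log2 ratio of its CPM (with 1 added) to the average vehicle library. Of 32 members, 0 passed 1.5-fold in either direction, where 3.02% of all genes did. The median log2 ratio was -0.11 over the members and -0.01 over all genes. The lowest was PTPN6, with 349.7 CPM with Dox, against 439 and 437 CPM with DMSO and 499 and 466 CPM with PBS (log2 ratio -0.40). VAV2 (-0.39), CD72 (-0.38), PIK3CD (-0.37) and CD22 (-0.37) followed, with FCRL2 and FCRL3 left aside for their counts. Of the 32 members 21 lay below all 4 vehicle libraries and 3 above (FCRL5, DAPP1 and MALT1), against 4459 below and 4421 above of all 15775 genes.

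The pretreatment design asks whether responses to a stimulus differ once BAF ATPases are inhibited. With BRM014 present, Dex at 6 h changed 16 of 31 members, 4 up and 12 down, where 3.67% of all genes were called higher and 4.1% lower. DAPP1 had 92.1 and 86.1 CPM with BRM014 and Dex, against 59.1 and 58.1 CPM with BRM014 and vehicle (log2 fold change 0.60 ± 0.06, adjusted p = 3.0e-08). FCGR2B had 83.2 and 84.1 CPM with BRM014 and Dex, against 58.2 and 50.8 CPM with BRM014 and vehicle (log2 fold change 0.62 ± 0.07, adjusted p = 2.8e-07). Both stood clear of vehicle, as they did without BRM014. FCRL5 had 31.5 and 27.4 CPM with BRM014 and Dex, against 22.9 and 23.4 CPM with BRM014 and vehicle (log2 fold change 0.34 ± 0.09, adjusted p = 0.0131), and its call was lost, with an adjusted p of 0.246 without BRM014+Dex replicate 1, 0.106 without BRM014+Veh replicate 1, 0.0831 without BRM014+Veh replicate 2. BLK had 291 and 298 CPM with BRM014 and Dex, against 254 and 256 CPM with BRM014 and vehicle (log2 fold change 0.21 ± 0.05, adjusted p = 0.00890), with a call likewise lost at 0.103 without BRM014+Dex replicate 2, 0.0793 without BRM014+Veh replicate 1, 0.0941 without BRM014+Veh replicate 2.

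Among falls with BRM014, CD79B had 17.0 and 13.7 CPM with BRM014 and Dex, against 21.9 and 21.8 CPM with BRM014 and vehicle (log2 fold change -0.51 ± 0.11, adjusted p = 0.00148), a call lost without BRM014+Dex replicate 2 (adjusted p = 0.124). CR2 had 53.7 and 54.7 CPM with BRM014 and Dex, against 72.6 and 80.8 CPM with BRM014 and vehicle (log2 fold change -0.50 ± 0.07, adjusted p = 3.3e-06). BLNK had 142 and 131 CPM with BRM014 and Dex, against 187 and 195 CPM with BRM014 and vehicle (log2 fold change -0.49 ± 0.06, adjusted p = 4.4e-07). Dex libraries of these genes all lay below vehicle libraries. VAV1 had 50.5 and 48.7 CPM with BRM014 and Dex, against 64.7 and 68.4 CPM with BRM014 and vehicle (log2 fold change -0.43 ± 0.06, adjusted p = 1.6e-05). CD22 had 48.3 and 46.5 CPM with BRM014 and Dex, against 61.5 and 64.4 CPM with BRM014 and vehicle (log2 fold change -0.41 ± 0.06, adjusted p = 1.1e-05). RASGRP3 had 88.0 and 81.2 CPM with BRM014 and Dex, against 112 and 111 CPM with BRM014 and vehicle (log2 fold change -0.40 ± 0.06, adjusted p = 2.4e-05), with no overlap. The 6 other falls were LYN, PIK3AP1, SYK, PIK3CD, VAV2 and PTPN6 (-0.37 to -0.20), of which LYN and PIK3AP1 kept their calls without any 1 library. For the others the call was lost, at an adjusted p of 0.107 without BRM014+Dex replicate 2 for SYK, 0.0667 without BRM014+Veh replicate 2 for PIK3CD and 0.294 without BRM014+Dex replicate 1, 0.0573 without BRM014+Veh replicate 1, 0.0797 without BRM014+Veh replicate 2 for VAV2. For PTPN6 it was 0.277 without BRM014+Dex replicate 1, 0.124 without BRM014+Dex replicate 2, 0.0675 without BRM014+Veh replicate 1, 0.319 without BRM014+Veh replicate 2, and 0.0548 with the replicate block. Outside the module 12 of 66 genes rose and 6 fell.

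The difference between the Dex responses was tested as an interaction, the response with BRM014 minus that with DMSO on the log2 scale. It was called above 0 for 4 of 31 members and below 0 for 0, where 1.04% of all genes were called above and 1.72% below. All 4 are surface proteins. For CD22 the response was -0.41 with BRM014 and -0.90 with DMSO, a difference of 0.49 ± 0.08 (adjusted p = 2.4e-04), kept without any 1 library. For CR2 it was -0.50 with BRM014 and -0.93 with DMSO (difference 0.43 ± 0.10, adjusted p = 0.00876). CR2 stood at 53.7 and 54.7 CPM with BRM014 and Dex and 51.2 and 53.8 CPM with DMSO and Dex, and these groups overlapped. For MS4A1 it was -0.10 with BRM014 and -0.44 with DMSO (difference 0.34 ± 0.09, adjusted p = 0.0382). For FCRL5 it was 0.34 with BRM014 and -0.22 with DMSO (difference 0.57 ± 0.12, adjusted p = 0.00484). With 1 library left out, calls were lost for CR2 (adjusted p = 0.0966 without BRM014+Veh replicate 1, 0.0819 without DMSO+Dex replicate 1) and FCRL5 (0.0602 without BRM014+Dex replicate 1). The MS4A1 call was lost without most single libraries: 0.0855 without BRM014+Dex replicate 1, 0.108 without BRM014+Dex replicate 2, 0.131 without BRM014+Veh replicate 1, 0.120 without BRM014+Veh replicate 2, 0.110 without DMSO+Dex replicate 1, 0.114 without DMSO+Dex replicate 2, 0.196 without DMSO+Veh replicate 2.

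For the other members no difference was called, which does not show that their responses are alike. BLNK was -0.49 with BRM014 and -0.54 with DMSO (difference 0.05 ± 0.09), and LYN -0.37 and -0.37 (0.00 ± 0.06). FCGR2B was 0.62 and 0.53 (0.09 ± 0.11). CD81, which rose with Dex after DMSO, was 0.06 with BRM014 and 0.33 with DMSO, and its difference of -0.27 ± 0.09 was not called (adjusted p = 0.122). INPP5D was 0.03 and 0.24, with a difference of -0.20 ± 0.07 (adjusted p = 0.122). Outside the module 1 gene, LCK (0.51), was above 0 and 6 were below, among them the calcium sensor STIM1 (-0.62), PIK3CG (-0.83), RHOH (-0.49) and PRKCE (-0.49).

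For IFNg at 6 h with BRM014 present, 1 of 31 members was called, where 1.77% of all genes were called. It was RASGRP3, with 137 and 127 CPM with BRM014 and IFNg, against 112 and 111 CPM with BRM014 and vehicle (log2 fold change 0.25 ± 0.06, adjusted p = 0.0208), and the call was lost, with an adjusted p of 0.441 without BRM014+IFNg replicate 1, 0.156 without BRM014+Veh replicate 1, 0.145 without BRM014+Veh replicate 2. The IFNg interaction was called for 1 of 31 members, where 0.198% of all genes were called. CD22 had an IFNg response of -0.09 with BRM014 and -0.45 with DMSO, a difference of 0.36 ± 0.08 (adjusted p = 0.0467). Per library CD22 held 58.1 and 60.2 CPM with BRM014 and IFNg, against 61.5 and 64.4 CPM with BRM014 and vehicle. The CD22 call was lost with DESeq2 size factors (adjusted p = 0.0588), and with 1 library left out it was 0.156 without BRM014+IFNg replicate 1, 0.241 without BRM014+IFNg replicate 2, 0.320 without BRM014+Veh replicate 1, 0.0777 without BRM014+Veh replicate 2, 0.106 without DMSO+IFNg replicate 1, 0.143 without DMSO+Veh replicate 1, 0.0688 without DMSO+Veh replicate 2. Without DMSO+IFNg replicate 2 the count was 4, where 163 of 15679 genes were called (106 above 0 and 57 below), against 30 of 15183 with all libraries (7 above and 23 below). FGR (-0.15 with BRM014 and -0.49 with DMSO, adjusted p of the difference 0.288) and CD79B (-0.19 and -0.45, 0.653) were not called. In the wider list 0 of 66 genes were called by either IFNg test with BRM014.

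**Figure D5:**
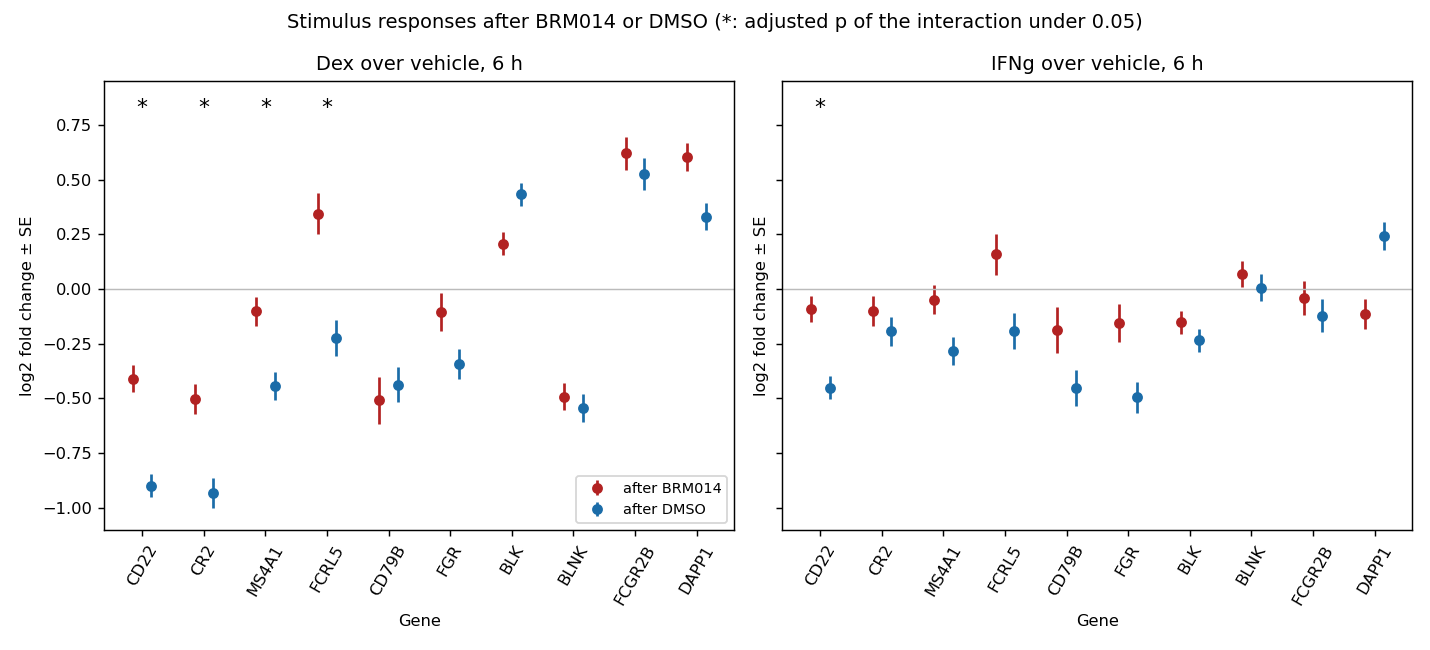
log2 fold changes (± SE) over vehicle of 10 genes for Dex (left) and IFNg (right) at 6 h, after BRM014 (left point of each pair) and after DMSO (right point), with stars for a called interaction. Dex responses of CD22, CR2, MS4A1 and FCRL5 lie higher after BRM014 than after DMSO, and the IFNg response of CD22 does so too.

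Some members carry a limit from the counting. FCGR2B is nearly identical to FCGR2C, and its expected counts were not whole in 38 of the 39 GM12878 libraries, as were those of PLCG2 in 38 and CD79B in 10, so reads shared with other genes were split by the authors' program. Exons of 11 members share bases with a gene on the opposite strand and those of 4 (CD79B, CD22, BLNK and PLCG2) with a gene on the same strand in GENCODE 44. No source used here says whether the counts are stranded, so values of these members may include reads of the other gene.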

How the data were processed

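The authors deposited expected counts (RSEM estimates before any scaling) and TPM, as named in the file headers. STAR, RSEM and hg38 are listed in the submitters' processing notes. Annotation release and strand setting were not found in the sources used here. Expected counts were rounded to whole numbers, with 4.20% to 4.80% of the GM12878 values not whole. Symbols come from GENCODE 44, which matched 58207 of 58780 Ensembl identifiers. Whole-table fits used edgeR 4.0.16 (R 4.3.3) with filterByExpr, TMM, a robust quasi-likelihood fit and Benjamini-Hochberg adjustment over all genes tested, called under 0.05, 2-sided. The panel fit held 15 libraries, 8 groups and 15775 genes (7 residual degrees of freedom), and the pretreatment fit 24 libraries, 12 groups and 15183 genes (12 degrees of freedom). Each standard error is the absolute log2 fold change divided by the root of its F statistic. Panel stimuli were set against the mean of DMSO and PBS, since the labels tie no vehicle to a stimulus. No 2 replicate libraries agreed within sampling noise (lowest chi-square per degree of freedom 2.52). The pipeline was tested on simulated data. In each comparison up to 6 rises and 6 falls among called members are given in full, and from the wider list up to 4 per direction with the smallest adjusted p. Promoter windows are from RefSeq, and counting intervals cover counting error only. A gene of the B cell marker and wider pathway lists is not reported here and was left out of both. The members and lists were chosen with earlier results of these data known.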

Additional observations from a re-analysis of the deposited data

Results flagged for a closer look

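The response to a stimulus differed between cells pretreated with BRM014 and with DMSO, by edgeR's interaction test, for 5 member values. For Dex at 6 h the difference (BRM014 minus DMSO, log2) was 0.488 for CD22, 0.429 for CR2, 0.569 for FCRL5 and 0.340 for MS4A1. FCRL5 had log2 fold changes of opposite sign, 0.34 with BRM014 and -0.22 with DMSO, of which the value with BRM014 was called and the other was not. For IFNg at 6 h it was 0.360 for CD22. Beside these differences, the same genes were lower after BRM014 with vehicle at 6 h. The log2 fold changes were -1.59 for CD22, -0.38 for CR2, -1.11 for FCRL5 and -1.30 for MS4A1. At 1 h with vehicle the log2 ratios of mean CPM were -0.11, -0.06, -0.05 and -0.12 in the same order. The part of this lowering in the interactions was not tested.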

How the results depend on the processing

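Alternatives were edgeR with size factors from DESeq2, DESeq2 itself (1.42.0), no filter on low counts, a replicate block, each library left out and, in the panel, DMSO or PBS alone as control. Over 66 values of named members and 632 alternatives, 571 kept direction and call, 61 lost the call and 0 reversed. The causes of the changes below were not tested. With DMSO alone as control IL2, TNF and LPS each called 1 member (PIK3CD) in place of 0. With DESeq2 size factors the IFNg interaction called 0 in place of 1. Leaving out 1 library gave 22 to 27 members for panel Dex (29 with all), 8 to 16 for panel IFNg (15), 1 for BRM014 at 1 h (2), 25 to 27 for BRM014 at 6 h (28), 18 to 20 for Dex at 6 h (19) and 11 to 13 for Dex with BRM014 (16). It gave 5 to 10 for IFNg at 6 h (12), 0 to 1 for IFNg with BRM014 (1), 2 to 4 for the Dex interaction (4) and 0 to 4 for the IFNg interaction (1). Replicate numbers do not pair the libraries: deviations of same-numbered libraries correlated at -0.053 to 0.044 in the panel and -0.069 to 0.083 in the pretreatment experiment. With the replicate block, 29 members were called for panel Dex, 28 for BRM014 at 6 h, 19 for Dex at 6 h and 15 for Dex with BRM014. Over all genes, calls with IL2 were 32, and 98 with DMSO alone, 10 with PBS alone and 73 without a filter. With TNF they were 3, and 38, 0 and 22 in the same order, 6 in DESeq2 and 5 with the replicate block. With LPS they were 0, and 35 with DMSO alone, 20 without a filter and 16 with the replicate block. The IFNg interaction had 30, and 51 in DESeq2 and 84 without a filter. Leaving out 1 library moved the calls over all genes by over 1.5 times in these comparisons: 10 to 163 for the IFNg interaction, 1060 to 2024 for panel IFNg (1872 with all), 149 to 203 for BRM014 at 1 h (312), 663 to 992 for IFNg at 6 h (1005), 170 to 211 for IFNg with BRM014 (269) and 267 to 375 for the Dex interaction (419). The ranges were 769 to 829 for Dex with BRM014 (1179), 61 to 74 for Dex at 1 h (92), 50 to 59 for IFNg at 1 h (78), 11 to 56 for IL2, 0 to 8 for TNF and 0 to 5 for LPS. Without DMSO+IFNg replicate 2 most calls of the IFNg interaction lay above 0 (106 of 163), against 7 of 30 with all libraries. Depth limits FCRL1, FCRL2 and FCRL3, with 0 to 37 counts per library.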
